A study of Homo sapiens with 8 samples.

Results

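IL6ST encodes gp130, the signalling receptor subunit shared by the cytokines of the interleukin-6 family. It was followed here together with 3 ligands (IL6, LIF and IL11), 4 receptor subunits that pair with it (IL6R, LIFR, OSMR and IL11RA), the transcription factor STAT3 and the feedback inhibitor SOCS3. Members were taken by gene symbol from a table of 18787 symbols, which gave 9 of the 10 listed genes, and IL11RA was not analysed here. All 9 were among the 14282 genes tested, which had a normalised value of at least 10 in at least 2 libraries, although IL11 lay near that value in T98. RNA was sequenced from T98 and U87, established human glioblastoma cell lines, 72 h after Lipofectamine RNAiMAX transfection of an siRNA against LKB1 or a control siRNA. LKB1 is the kinase encoded by STK11, a tumour suppressor that activates AMPK. The 4 groups were T98 with LKB1 siRNA, T98 with control siRNA, U87 with LKB1 siRNA and U87 with control siRNA, with 2 libraries in each. IL6ST was selected on its difference between LKB1 and control siRNA libraries in these same data, so its response is described and carries no p-value; the other members were chosen by their place in the pathway.

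Cytokines of the family bind a ligand-specific subunit and bring it together with gp130. IL-6 uses IL6R and IL-11 uses IL11RA, each with a gp130 pair, whereas LIF joins LIFR to gp130 and oncostatin M joins OSMR or LIFR to gp130. Janus kinases on the receptor tails then phosphorylate STAT3, which enters the nucleus and switches on targets that include SOCS3, and SOCS3 protein in turn blocks gp130. STAT3 activity is known from the mesenchymal state of glioblastoma, in which IL-6, LIF and oncostatin M act as inputs. The values below are mRNA levels and say nothing of receptor protein or of STAT3 phosphorylation.

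Sequences are shown for IL6ST, which had the largest difference between siRNAs among the members, and for IL11, the ligand with the largest fold difference in U87. The site in the 3′ untranslated region (3′ UTR) of IL6ST lies on the minus strand of chromosome 5 and spans bases 17 to 46 of the 3′ UTR (GENCODE 29 transcript sequence). Its capitals mark GCAGTAC, a heptamer (7 bases) that begins at base 29 of a 3′ UTR of 5987 bases. The promoters are the 250 bases before the transcription start from RefSeq (GRCh38.p14, minus strand), chr5:55994964-55995213 for IL6ST and chr19:55370464-55370713 for IL11. Their capitals mark a match to the STAT motif TTNNNGGAA, beginning at -217, and to the AP-1 motif TGANTCA, beginning at -96, counted back from the start.
IL6ST 3′ UTR site: gctacaacttcaGCAGTACctataaagtaa
IL6ST promoter: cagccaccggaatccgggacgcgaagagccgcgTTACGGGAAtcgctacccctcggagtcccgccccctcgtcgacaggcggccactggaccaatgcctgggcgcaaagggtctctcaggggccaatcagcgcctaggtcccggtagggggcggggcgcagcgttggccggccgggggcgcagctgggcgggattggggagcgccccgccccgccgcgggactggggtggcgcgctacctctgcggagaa
IL11 promoter: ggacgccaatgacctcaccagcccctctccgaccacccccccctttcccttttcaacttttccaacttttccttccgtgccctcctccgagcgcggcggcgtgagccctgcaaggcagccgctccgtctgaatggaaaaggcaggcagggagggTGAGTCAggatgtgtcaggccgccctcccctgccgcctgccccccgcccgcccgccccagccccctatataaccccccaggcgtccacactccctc

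Over 35116 promoters of the same length, searched on both strands, 13.7% held TTNNNGGAA and 6.57% held TGANTCA, while 0.527% held an NF-kB motif. Among the members with a promoter entry, the STAT letters were also found in a window of LIFR, OSMR and SOCS3, the AP-1 letters in IL11 and the NF-kB letters in IL6, beginning at -73. No entry was matched for LIF. These matches describe letters in a window and no binding was measured.

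The targeted gene was lower in all 4 LKB1 siRNA libraries. STK11 had normalised values of 339.9 and 587.6 in T98 with LKB1 siRNA, against 1999 and 2041 with control siRNA, and of 360.7 and 384.6 in U87 with LKB1 siRNA, against 2445 and 2041. On the log2 scale it differed by -2.17 ± 0.28 (SE) in T98 and -2.58 ± 0.28 in U87 (limma-trend adjusted p of 0.0824 and 0.0466, or 0.00254 and 0.00195 with the lane term below). Libraries came from lane 2 and lane 4 for T98 and from lane 2 and lane 5 for U87, as the column headers give them, and all values below name lane 2 first. The headers do not say what else differed between lanes, and nothing in the labels says that the duplicates were separate transfections. Every p-value below therefore rests on the spread among these samples, and that spread may be technical. Lane differences repeated within a line (r = 0.717 across 14282 genes between the T98 groups and 0.809 between the U87 groups). A fit with a lane term for each line (the lane-term fit) is therefore given where it changes a call. Among glioma and glial markers, VIM (34020 to 292296) and CD44 (37284 to 63018) were high in all 8 libraries, while SOX2 and S100B reached no more than 2.89 and 3.48. GFAP (1.85 to 50.67), FABP7 (0 to 20.15) and OLIG2 (25.53 to 70.37) were also low. NES ran from 16.19 to 2073, PDGFRA from 123.6 to 1718 and EGFR from 2881 to 9855. Among immune markers, the pan-leukocyte gene PTPRC stayed at or under 9.63, and CD3E, AIF1 and LYZ under 10. CD68, a lysosomal gene used as a macrophage marker, ran from 538 to 22934, and ITGAM from 26.2 to 155. The summed immune list was 621 to 730 in T98 with LKB1 siRNA and 826 to 1299 with control siRNA, and 12895 to 22988 in U87 with LKB1 siRNA and 12068 to 19540 with control siRNA. This sum, in which CD68 had the largest values, was thus lower in T98 than in U87. The 3 ligands were also lower in T98 in the comparison of the lines below, and the part of the immune list in that result was not tested.

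IL6ST (NM_002184, hg19 chromosome 5, 55230925 to 55290821) was higher with LKB1 siRNA in both lines and in both lanes of each. In T98 its normalised values were 20602 and 27536 with LKB1 siRNA, against 7847 and 6271 with control siRNA. In U87 they were 14024 and 14460 with LKB1 siRNA, against 2751 and 3438. No LKB1 siRNA library overlapped a control library of its line, and every LKB1 siRNA library in U87 exceeded every T98 control. Group means were 24069 ± 4903 with LKB1 siRNA and 7059 ± 1114 with control siRNA in T98, and 14242 ± 308 and 3094 ± 485 in U87 (SD, n = 2 each). The fitted difference was 1.76 ± 0.22 (SE, log2 of value plus 1) in T98 and 2.21 ± 0.22 in U87, which are 3.40-fold and 4.63-fold. Within lanes the fold was 2.63 in lane 2 and 4.39 in lane 4 for T98, and 5.10 in lane 2 and 4.21 in lane 5 for U87. RNA came from whole cultures, so fewer cells of a kind and less RNA per cell cannot be told apart for this or any later value.

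**Figure D1:**
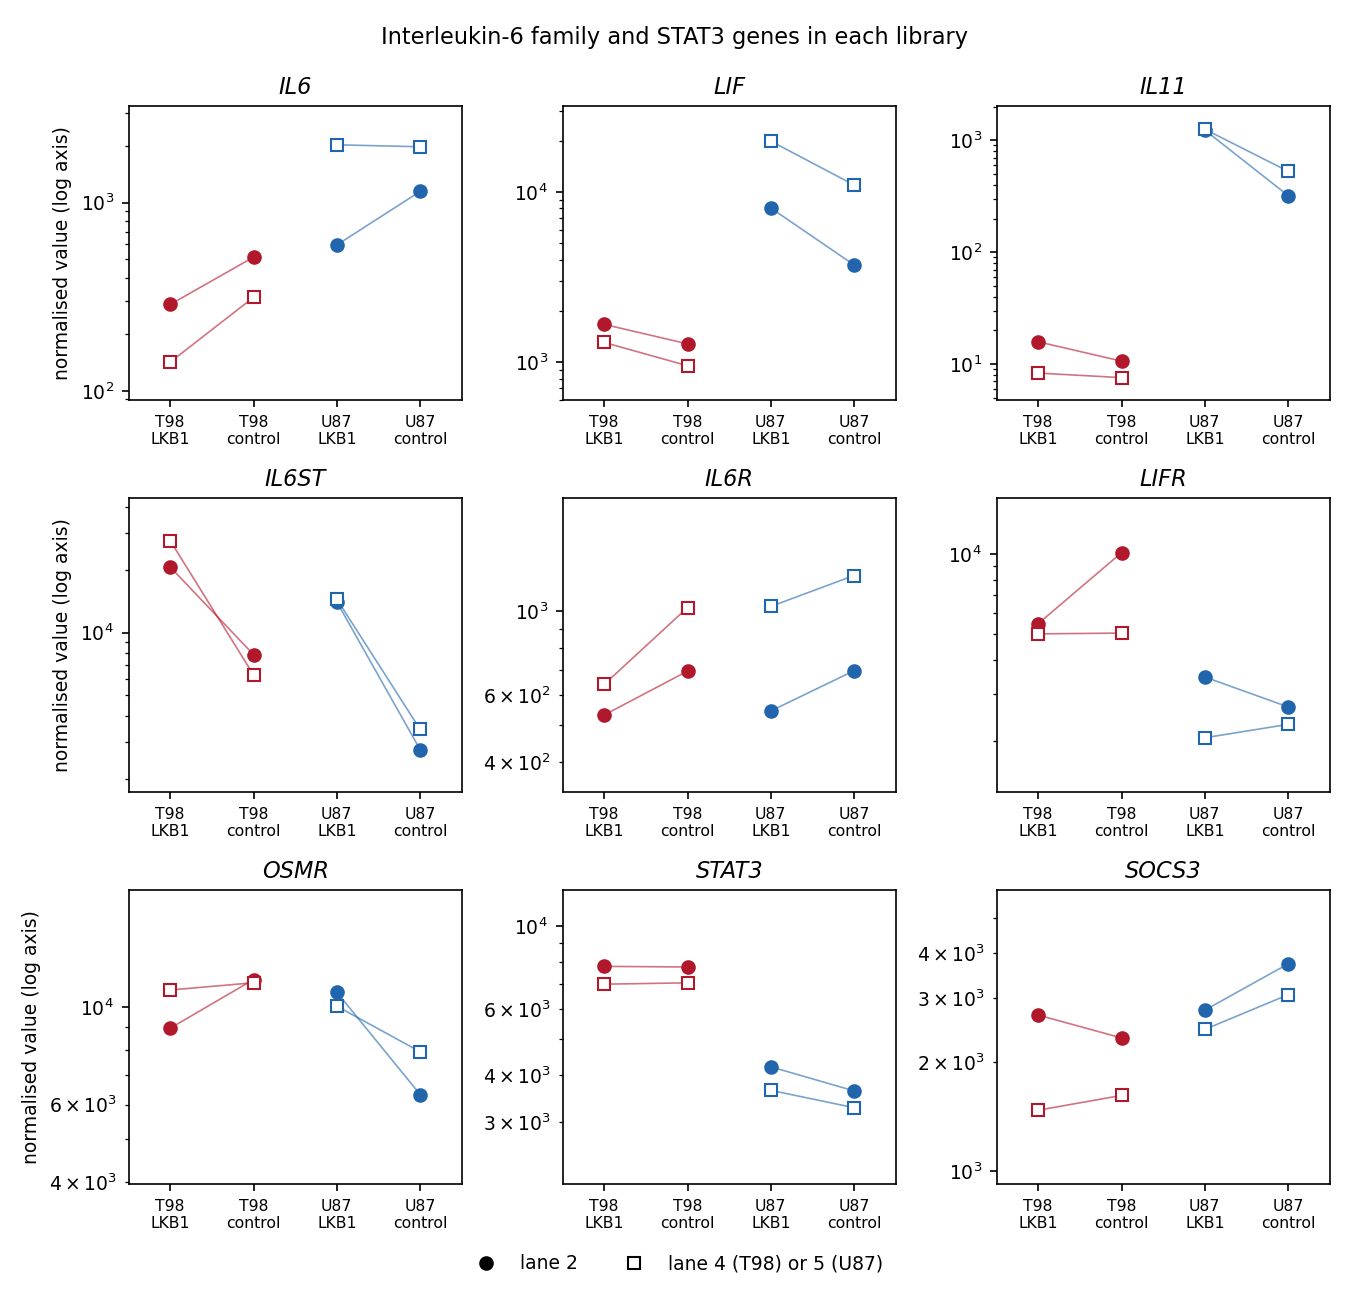
Normalised values (log axis) of the 9 genes in each of the 8 libraries, with LKB1 siRNA left of control siRNA for T98 (red) and U87 (blue); filled circles are lane 2, open squares lane 4 (T98) or 5 (U87), and lines join libraries of the same lane. IL6ST lies between 14024 and 27536 in the 4 LKB1 siRNA libraries and between 2751 and 7847 in the 4 control libraries, while LIF in U87 is spread more by lane than by siRNA.

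Without a lane term, no other member passed an adjusted p of 0.05 in T98 (0 of 8 by limma-trend, 0 at an unadjusted p under 0.05). Over all genes, 0.0280% were called higher and 0 lower. With the lane term, IL6 and IL6R were called lower (2 of 8), where 7.33% of all genes were called lower and 8.48% higher. In U87, without a lane term, again none of the 8 passed (limma-trend, 2 at an unadjusted p under 0.05, IL11 and OSMR), where 0.0280% of genes were called higher and 0.0560% in either direction. With the lane term LIF and IL11 were called higher (2 of 8), where 5.29% of all genes were called higher, and none was called lower, against 5.91% of all genes. Groups that did not overlap were found for 5 of the 9 members in T98, against 41.0% of all genes, and for 5 of the 9 in U87, against 37.8%. Both counts include IL6ST, which was selected on this difference, so its part in them tests nothing. The others were IL6, LIF, IL6R and OSMR in T98 and IL11, OSMR, STAT3 and SOCS3 in U87.

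Among the ligands, IL6 (NM_000600, hg19 chromosome 7, 22766766 to 22771621), the cytokine that acts through IL6R and gp130, was lower with LKB1 siRNA in T98. It had normalised values of 288 and 142.3 with LKB1 siRNA in T98, against 513.7 and 314.2 with control siRNA. Both LKB1 siRNA libraries lay under both controls. The difference was -0.98 ± 0.62 (SE, log2), with an adjusted p from limma-trend of 0.639 without and 0.0324 with the lane term. The lane-term call was lost without any of the 8 libraries in turn, where the adjusted p was 0.0696 to 0.147. In U87, IL6 had 596.3 and 2030 with LKB1 siRNA, against 1148 and 1982, so the groups overlapped. The U87 difference was -0.94 in lane 2 and 0.03 in lane 5, and the limma-trend adjusted p was 0.994, or 0.257 with the lane term. The 2 LKB1 siRNA libraries of U87 differed between lanes by 1.77 on the log2 scale, which was larger than the effect of the siRNA in either lane.

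LIF (NM_001257135, hg19 chromosome 22, 30636436 to 30642840) signals through LIFR and gp130 and is known for keeping stem cells undifferentiated. In U87 its normalised values were 8038 and 19867 with LKB1 siRNA, against 3721 and 10976 with control siRNA. The lane 5 control lay above the lane 2 library with LKB1 siRNA, so the groups overlapped, but the fold was 2.16 in lane 2 and 1.81 in lane 5. Over both lanes LIF was higher by 0.98 on the log2 scale, with an SE of 0.56 without the lane term and 0.12 with it (limma-trend adjusted p of 0.783 and 0.00396). In T98, LIF had 1665 and 1304 with LKB1 siRNA, against 1280 and 952.2 with control siRNA. These groups did not overlap and differed by 0.42 on the log2 scale, with a limma-trend adjusted p of 0.865, or 0.0569 with the lane term. The lane difference of LIF within U87 groups was 1.31 with LKB1 siRNA and 1.56 with control siRNA (log2, lane 5 over lane 2).

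IL11 (NM_000641, hg19 chromosome 19, 55875750 to 55881831), a cytokine known from fibrosis and bone resorption, was the ligand that differed most in U87. Its normalised values there were 1235 and 1257 with LKB1 siRNA, against 321 and 528.9 with control siRNA. The groups did not overlap, and the difference was 1.59 ± 0.45 (SE, log2), or 3.02-fold, being 3.84-fold in lane 2 and 2.37-fold in lane 5. Its limma-trend adjusted p was 0.25 without the lane term and 0.0107 with it. In the lane-term fit, leaving out any of the 4 U87 libraries left 1 lane pair and ended both U87 calls, with adjusted p of 0.129 to 0.365 for LIF and 0.13 to 0.419 for IL11. In T98, IL11 had 15.82 and 8.308 with LKB1 siRNA, against 10.63 and 7.568, with groups that overlapped near the filter value (limma-trend adjusted p of 0.871, or 0.421 with the lane term).

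Of the receptor subunits that pair with gp130, none was called higher with LKB1 siRNA in either line or fit (0 of 3). Over all genes, 0.0280% were called higher in each line without the lane term, and 8.48% in T98 and 5.29% in U87 with it. IL6R (NM_000565, hg19 chromosome 1, 154377669 to 154441926), which binds IL-6, had 532.4 and 641.5 in T98 with LKB1 siRNA, against 695.1 and 1023 with control siRNA. Both LKB1 siRNA libraries were under both controls, the difference was -0.53 ± 0.40 (SE, log2), and the limma-trend adjusted p was 0.709 without and 0.0475 with the lane term. That call too was lost without any of the 8 libraries, at an adjusted p of 0.104 to 0.173. In U87, IL6R had 545.5 and 1030 with LKB1 siRNA, against 696.9 and 1243, groups that overlapped, and its difference was -0.35 in lane 2 and -0.27 in lane 5 (limma-trend adjusted p of 0.994, or 0.212 with the lane term). IL6R was therefore lower in all 4 within-lane pairs, at 0.77 and 0.63 times the control in T98 and at 0.78 and 0.83 times in U87. The share of all genes with the same direction in all 4 pairs was not counted, so this agreement is a description.

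OSMR (NM_003999, hg19 chromosome 5, 38845960 to 38935743), the oncostatin M receptor subunit, had 10822 and 10060 in U87 with LKB1 siRNA, against 6328 and 7920 with control siRNA. Both LKB1 siRNA libraries exceeded both controls, by 0.56 ± 0.20 (SE, log2), with a limma-trend adjusted p of 0.396 without and 0.0516 with the lane term. In T98, OSMR had 8964 and 10953 with LKB1 siRNA, against 11569 and 11376, again without overlap but lower, by -0.21 ± 0.20 (limma-trend adjusted p of 0.766, or 0.346 with the lane term). LIFR (NM_001127671, hg19 chromosome 5, 38475065 to 38595507), the LIF receptor subunit, had 5487 and 5024 in T98 with LKB1 siRNA, against 10115 and 5058. Its lane 2 control stood well above the other 3 T98 libraries. In U87, LIFR had 3463 and 2051 with LKB1 siRNA, against 2676 and 2302, and the LKB1 siRNA libraries lay on either side of the controls. LIFR differed by -0.45 in T98 and 0.10 in U87 on the log2 scale (limma-trend adjusted p of 0.723 and 0.999, or 0.189 and 0.803 with the lane term).

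STAT3 (NM_139276, hg19 chromosome 17, 40465343 to 40540513), the transcription factor downstream of gp130, was close to the same level with either siRNA in T98. Its normalised values were 7809 and 6999 with LKB1 siRNA, against 7780 and 7057 with control siRNA, a difference of -0.0032 ± 0.18 (SE, log2). In U87 it had 4209 and 3642 with LKB1 siRNA, against 3629 and 3273, without overlap but only 1.14-fold apart (limma-trend adjusted p of 0.954, or 0.333 with the lane term). SOCS3 (NM_003955, hg19 chromosome 17, 76352859 to 76356158), the STAT3-induced inhibitor of gp130, had 2695 and 1471 in T98 with LKB1 siRNA, against 2330 and 1616, with groups that overlapped. In U87 it had 2780 and 2460 with LKB1 siRNA, against 3733 and 3067, so both libraries were under both controls while IL6ST was higher in the same libraries. The SOCS3 difference in U87 was -0.37 ± 0.32 (SE, log2), with a limma-trend adjusted p of 0.933, or 0.119 with the lane term.

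**Figure D2:**
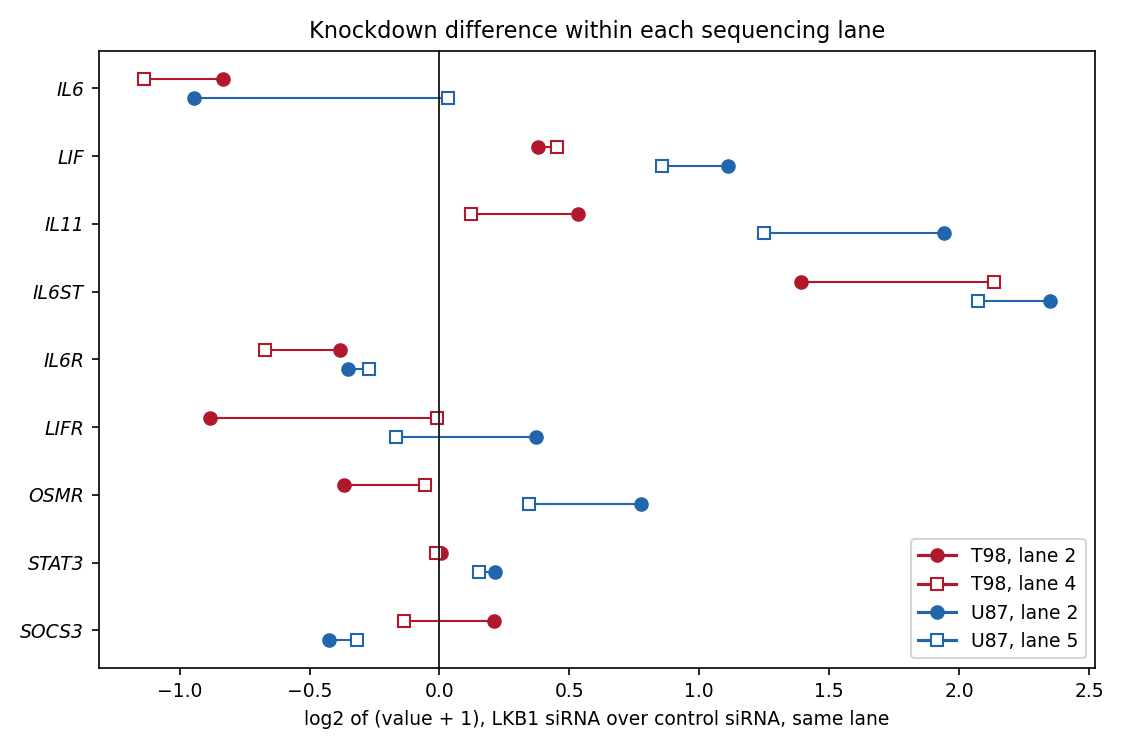
Within-lane difference in log2 of value plus 1, LKB1 siRNA over control siRNA, for the 9 genes; red is T98, blue is U87, filled circles are lane 2, open squares lane 4 or 5, and a line joins the lanes of a line. The 4 values of IL6ST run from 1.39 to 2.35, LIF and IL11 are above 0 in all 4 pairs, IL6R is below 0 in all 4, and OSMR is below 0 in T98 and above 0 in U87. The T98 values of IL11 lie near the filter value, and the share of all genes with the same direction in all 4 pairs was not counted.

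No member's response differed between the lines past the threshold. The difference of the effects (T98 minus U87) was tested as an interaction, in which 0 of the 8 other members were called by limma-trend (1 at an unadjusted p under 0.05) and 0 of all genes. With the lane term, 0 of the 8 were called (3 at an unadjusted p under 0.05), where 0.476% of all genes were. OSMR had an effect difference of -0.77 ± 0.28 (SE, log2), with an adjusted p of 1 without and 0.166 with the lane term. IL11 differed by -1.27 ± 0.64 and LIF by -0.57 ± 0.80, with lane-term adjusted p of 0.193 and 0.207 from limma-trend. For IL6ST the effects differed by -0.45 ± 0.32 on the same scale.

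The lines themselves differed in most members, compared in control siRNA libraries alone. Of the 9 members, 4 were called higher in T98 than in U87 (IL6ST, LIFR, OSMR and STAT3), where 18.3% of all genes were, and 3 were called lower (IL6, LIF and IL11), where 19.5% were. The 3 ligands were thus lower in T98, and gp130, LIFR, OSMR and STAT3 higher. Libraries did not overlap between the lines for 8 of the 9 members, against 71.6% of all genes. In the lane-term fit, which estimates the difference between the lines at lane 2, 4 were called higher (30.7% of all genes) and 4 lower (32.6%), SOCS3 being the addition.

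IL11 averaged 9.10 ± 2.17 in T98 and 425 ± 147 in U87 control libraries (SD, n = 2 each), a difference of -5.37 ± 0.45 (SE, log2; limma-trend adjusted p of 0.000182). LIF averaged 1116 ± 232 in T98 and 7348 ± 5130 in U87, and IL6 averaged 414 ± 141 in T98 and 1565 ± 590 in U87. Their differences were -2.53 ± 0.56 and -1.91 ± 0.62 on the log2 scale (limma-trend adjusted p of 0.0112 and 0.0457). In the lane-term fit they were -1.62 and -0.84. The IL6 call was lost without any of the 4 control libraries, at an adjusted p of 0.0719 to 0.181, and without a filter on low values, at 0.0515, and the LIF call without the lane 4 control of T98, at 0.057. All 3 ligands were lower in both T98 controls than in either U87 control.

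On the receptor side, IL6ST was higher in T98 controls than in U87 controls by 1.19 ± 0.22 (SE, log2; limma-trend adjusted p of 0.00574). LIFR averaged 7587 ± 3576 in T98 and 2489 ± 265 in U87 (SD, n = 2 each) and was higher by 1.53 ± 0.36 (adjusted p of 0.0145, limma-trend). OSMR averaged 11473 ± 136 in T98 and 7124 ± 1125 in U87, higher by 0.70 ± 0.20 (limma-trend adjusted p of 0.0268). The LIFR call was lost without the lane 2 control of T98 (adjusted p of 0.0752) or the lane 5 control of U87 (0.0603). The OSMR call was lost without the lane 2 or lane 4 control of T98 (0.108 and 0.0862) or the lane 2 control of U87 (0.156), and with only the 4 control libraries in the fit (0.0566). STAT3 averaged 7419 ± 512 in T98 and 3451 ± 251 in U87, higher by 1.10 ± 0.18 (limma-trend adjusted p of 0.00271). IL6R averaged 859 ± 232 in T98 and 970 ± 386 in U87, a difference of -0.14 ± 0.40, which changed sign in the lane-term fit (0.09). SOCS3 averaged 1973 ± 505 in T98 and 3400 ± 471 in U87, a difference of -0.80 ± 0.32 (adjusted p of 0.0826, limma-trend). It passed in the lane-term fit, at -0.57 (0.0167), and without the lane 2 or lane 4 library of T98 with LKB1 siRNA (0.0387 and 0.0379).

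**Figure D3:**
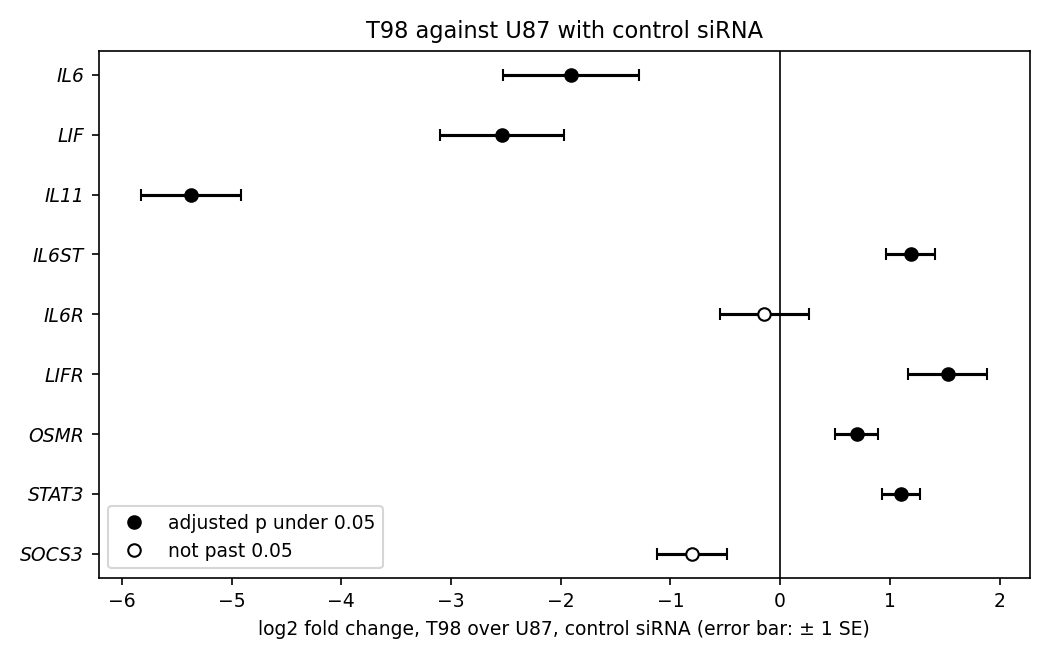
Log2 fold change of T98 over U87 in control siRNA libraries for the 9 genes (points, with bars of 1 SE from the fit; 2 libraries per line); filled points passed an adjusted p of 0.05. The ligands IL6, LIF and IL11 lie left of 0, at -1.91, -2.53 and -5.37, while IL6ST, LIFR, OSMR and STAT3 lie right of 0.

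Levels can be ranked between genes only per length, here as the normalised value per kilobase of the listed transcript. In T98 with LKB1 siRNA, IL6ST stood first at 2653 per kilobase, clear of OSMR (1615) and STAT3 (1482), which overlapped each other. In T98 with control siRNA the order was OSMR (1861), STAT3 (1485), then IL6ST (778), LIFR (728) and SOCS3 (721), the last 3 overlapping in their libraries. IL6R (131) and IL11 (3.82) came last. In U87 with LKB1 siRNA, LIF led (3513), followed by OSMR (1694) and IL6ST (1570). In U87 with control siRNA LIF, IL6, SOCS3 and OSMR (1850, 1316, 1243 and 1156) overlapped each in turn with the next, and IL6ST (341) stood below STAT3 (691).

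The balance of gp130 to its partners was taken as a ratio of levels per kilobase. The ratio of IL6ST to OSMR was 1.56 and 1.71 in T98 with LKB1 siRNA, against 0.461 and 0.375 with control siRNA. It was 0.881 and 0.977 in U87 with LKB1 siRNA, against 0.295 and 0.295. The ratio of IL6ST to LIFR was 4.31 and 6.30 in T98 with LKB1 siRNA, against 0.891 and 1.42, and 4.65 and 8.10 in U87 with LKB1 siRNA, against 1.18 and 1.72. In every library IL6ST mRNA exceeded IL6R mRNA per kilobase, with ratios of 28.1 and 31.1 in T98 with LKB1 siRNA, against 8.18 and 4.45, and of 18.6 and 10.2 in U87 with LKB1 siRNA, against 2.86 and 2. These ratios contain the IL6ST values that chose the gene and carry no test.

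Beyond the 9 members, 77 further genes of the pathway were listed (ligands, receptors, kinases, adaptors and STATs, inhibitors, shedding and trafficking factors, and STAT3 targets), of which 68 were tested. Without a lane term, limma-trend called none of them in T98, in U87 or for the difference (5, 8 and 3 at an unadjusted p under 0.05). Their median log2 difference was 0.075 in T98 and 0.055 in U87, beside 0.017 and -0.002 over all genes. With the lane term, 7 were called higher and 3 lower in T98, and 10 higher and 3 lower in U87. These are 14.7% and 19.1% of the 68, beside 15.8% and 11.2% of all genes called in either direction. These calls rest on few libraries: without any 1 of the 4 U87 libraries the lane-term fit called 0 genes in U87, so every U87 call named below was lost. In T98 it called 0 genes without the lane 2 library of either U87 group, so every T98 call was lost there too.

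Of the genes called higher with the lane term, 5 were shared between the lines, 71.4% of the 7 in T98 and 50% of the 10 in U87. None of the 3 called lower in each line was shared. Over all genes, 405 were called higher in both lines, 33.4% of those in T98 and 53.6% of those in U87. Another 309 were called lower in both, 29.5% of those in T98 and 36.6% of those in U87. The 5 shared pathway genes were CLCF1, a gp130 ligand of the CNTF receptor, the adaptor SHC1, the inhibitors SOCS4 and PIAS3, and TGM2, a transglutaminase listed as a STAT3 target. TGM2 had normalised values of 1488 and 2902 in T98 with LKB1 siRNA, against 395.7 and 1042 with control siRNA, and of 13727 and 33194 in U87 with LKB1 siRNA, against 3194 and 13839. Its log2 difference was 1.69 ± 0.21 in T98 and 1.68 ± 0.21 in U87 (SE and adjusted p of 0.00565 and 0.0038 from the lane-term limma fit). CLCF1 had 423.7 and 243.8 in T98 with LKB1 siRNA, against 222.7 and 155.6, and 1419 and 1717 in U87 with LKB1 siRNA, against 896.4 and 1048. Its differences were 0.78 ± 0.15 and 0.69 ± 0.15 on the log2 scale (lane-term limma adjusted p of 0.0181 and 0.029). SHC1 was higher by 0.65 in T98 and 0.48 in U87 (lane-term limma adjusted p of 0.0138 and 0.0367).

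Calls in T98 alone included ADAM17, the protease that sheds IL6R from the cell surface. ADAM17 had 1682 and 2399 in T98 with LKB1 siRNA, against 5187 and 4666 with control siRNA, a difference of -1.29 ± 0.17 (SE, log2; lane-term limma adjusted p of 0.00678). In U87 it had 2871 and 2847 with LKB1 siRNA, against 3234 and 3434, a difference of -0.22 (lane-term adjusted p of 0.44, limma), and the difference between the lines did not pass (0.106). The adhesion receptor ICAM1 (-0.82) and the survival factor MCL1 (-0.58) were also called lower in T98 (lane-term limma adjusted p of 0.0298 and 0.0357). In U87, ICAM1 and MCL1 differed by -0.14 and -0.26 and were not called. In U87, SOCS5, a SOCS family inhibitor (0.87), and CCL2, a monocyte chemokine (0.98), were called higher (lane-term limma adjusted p of 0.00563 and 0.00897). CCL2 had 577.6 and 403.9 in U87 with LKB1 siRNA, against 332.4 and 180.3 with control siRNA. In T98, SOCS5 and CCL2 differed by 0.28 and 0.40 and were not called. ICAM1, MCL1, SOCS5 and CCL2 were not called for the difference between the lines in either fit.

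BIRC5, which encodes survivin and is highest in dividing cells, had 1894 and 1822 in U87 with LKB1 siRNA, against 5767 and 3876 with control siRNA. In T98 it had 10042 and 6674 with LKB1 siRNA, against 8810 and 6345. The U87 difference was -1.35 ± 0.15 and the T98 difference 0.13 ± 0.15 (SE, log2; lane-term limma adjusted p of 0.00296 and 0.565), and BIRC5 was the only one of the 68 called for the difference between lines, at 1.48 ± 0.21 with an adjusted p of 0.0439 in that fit. The transcription factor CEBPD (-1.17) and the adaptor GRB2 (-0.61) were also called lower in U87 (lane-term limma adjusted p of 0.0198 and 0.0199). In T98, CEBPD and GRB2 differed by -0.13 and -0.36 and were not called. Of the 33 STAT3 targets tested, none was called by limma-trend in either line without the lane term. With it, 3 were called higher and 2 lower in T98 (9.09% and 6.06%, beside 8.48% and 7.33% of all genes), and 4 higher and 2 lower in U87 (12.1% and 6.06%, beside 5.29% and 5.91%).

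**Figure D4:**
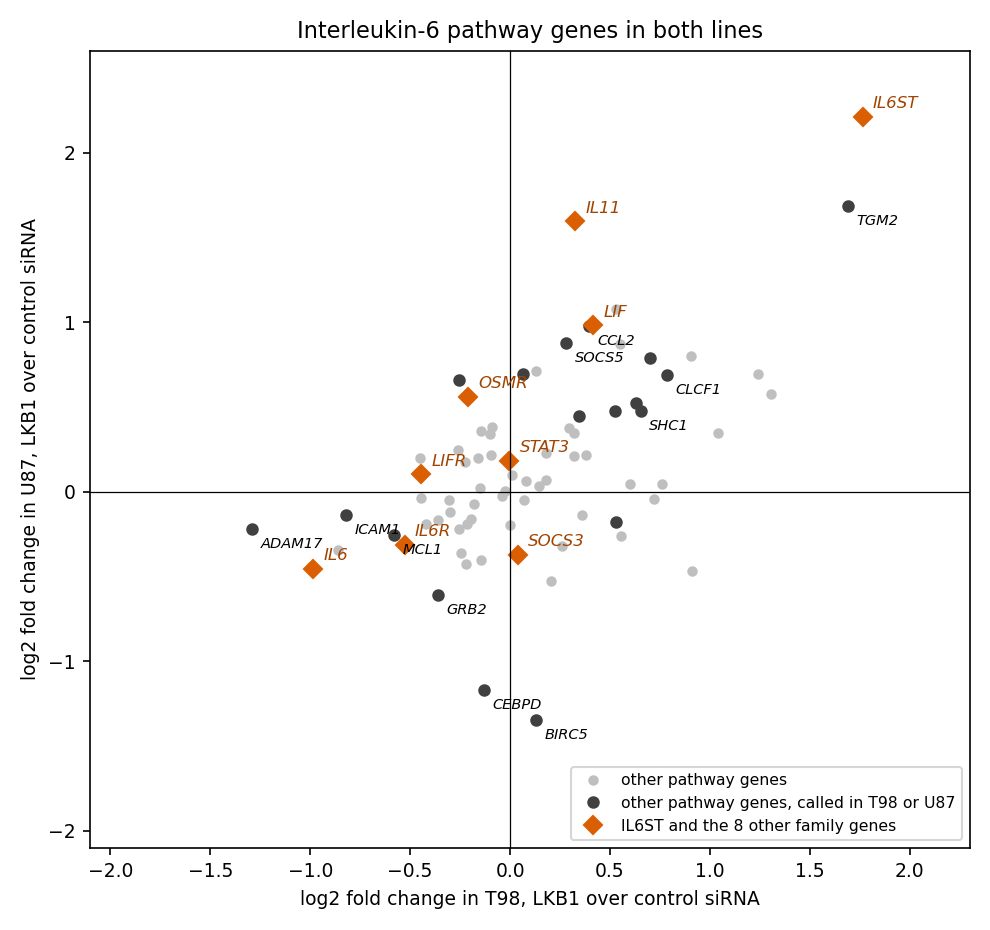
Log2 difference between LKB1 siRNA and control siRNA in T98 (x) and U87 (y) for the 9 genes (orange) and 68 further pathway genes (grey; dark where called in T98 or U87 with the lane term). IL6ST (1.76 and 2.21) and TGM2 (1.69 and 1.68) lie apart at the upper right, and BIRC5 and CEBPD lie low, near 0 in T98.

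In the control libraries of the lines, 17 of the 68 were called higher in T98 than in U87 and 18 lower without a lane term (25% and 26.5%, beside 18.3% and 19.5% of all genes), with a median log2 difference of -0.179, beside -0.009 over all genes. STAT5B, a STAT activated by other cytokines as well, averaged 3138 ± 290 in T98 and 1119 ± 40 in U87, and the interferon-induced factor IRF1 averaged 3456 ± 29 in T98 and 1020 ± 123 in U87 (SD, n = 2 each). The angiogenic factor VEGFA averaged 1642 ± 183 in T98 and 27112 ± 1307 in U87, and the cell cycle inhibitor CDKN1A averaged 1732 ± 952 in T98 and 22411 ± 1631 in U87. FOSL2, an AP-1 subunit, was also lower in T98, by -1.84 on the log2 scale (limma-trend adjusted p of 0.000703). CP, the copper carrier ceruloplasmin, had 1825 and 7183 in T98 control libraries, against 388.6 and 574.8 in U87. PROS1, the anticoagulant protein S, had 100.4 and 442.6 in T98, against 2447 and 1966 in U87. Both passed in either fit, and neither gene's libraries overlapped between the lines.

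The genes whose levels followed IL6ST most closely over the 8 libraries were found among 12175 genes with a mean value of at least 50. They were ZDHHC20, a palmitoyltransferase (Pearson r = 0.981), TEAD1, a Hippo pathway transcription factor (0.978), the kinases SRPK2 (0.971) and PIP4K2B (0.968), and ZNF12 (0.966). After each line was centred on its own mean, they were SEC24A (0.994), BRPF1 (0.993), SEC24B (0.992), TEAD1 (0.99) and ZNF837 (0.988). SEC24A and SEC24B encode cargo subunits of the COPII coat of vesicles leaving the endoplasmic reticulum. SEC24A had 3873 and 4246 in T98 with LKB1 siRNA, against 2116 and 1705 with control siRNA, and 4303 and 3881 in U87 with LKB1 siRNA, against 1341 and 1464. The 8 libraries share siRNA, line and lane, so these correlations describe the samples and carry no p-value.

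The heptamer shown for IL6ST was found in no other member's 3′ UTR. The other 3′ UTRs searched ran from 281 bases (LIF) to 4070 bases (IL6R). The letters were chosen in an earlier look at these data, so what follows is a description. Of 13617 tested genes with an annotated 3′ UTR, 573 (4.21%) held GCAGTAC. Their median log2 difference was 0.176 in T98 and 0.344 in U87, beside 0.015 and -0.011 for genes without it. With the lane term, 24.8% of them were called higher in T98 and 26.4% in U87, beside 7.86% and 4.46% of genes without it. Their annotated 3′ UTRs were also longer, with a median of 2952 bases against 862. The part of the heptamer or of 3′ UTR length in the rise of IL6ST was not tested. Of the 9 genes most like IL6ST, which were picked for following it, ZDHHC20, PIP4K2B and SEC24B held the heptamer. Of the 18 further pathway genes called in either line with the lane term, 1 held it (HIF1A), and TGM2 did not. Some of the 3′ UTRs searched were short, such as 174 bases for CLCF1, 387 for VEGFA and 399 for ZNF12. A gene counted as without the heptamer may therefore hold it in bases that were not searched.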

How the data were processed

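The authors deposited a table with a normalised signal for each RefSeq transcript in each library. The submitters' processing notes name TopHat2 2.0.8b, hg19 and edgeR (without a version), and the read counter is not given in the sources used here. Libraries were made with the TruSeq V2 kit, per the labels' protocols, whose reads carry no strand, so a gene and an antisense partner cannot be told apart. Values sum to 30730638 to 33450221 per library after the authors' normalisation, so they are not each library's own depth. The table has 18815 rows and 18787 symbols.

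Values were compared by limma-trend on log2(value + 1), in limma 3.58.1 under R 4.3.3, a scale that understates the change of low genes. All 8 libraries entered with 4 group means and 4 residual degrees of freedom. P-values were two-sided and adjusted by Benjamini and Hochberg's method over 14282 genes (value of at least 10 in at least 2 libraries) and a threshold of 0.05. The pairing by lane comes from the column headers: lane differences correlated at 0.717 and 0.809 within lines and at 0.124 to 0.177 between lines. The lane-term fit, a replicate block, has 2 residual degrees of freedom. The fit without a lane term was tested on simulated data that held no lane effect, and the lane-term fit was not tested in this way. Alternatives changed the pseudocount, filter, scaling, block and libraries.

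The members and lists were chosen with earlier results of these data known. Of the other pathway genes, up to 3 called in each direction per contrast and fit with the smallest adjusted p were named, and 5 genes most like IL6ST on each scale. PIAS3 and SOCS4 were named after their values were seen. A gene that met the naming rule is not reported here. The RefSeq transcript of each gene is the one in the deposited table. Coordinates are hg19 from that table, with starts counted from 1. RefSeq promoters and GENCODE 29 3′ UTRs are on GRCh38, and 95.3% of tested genes had a 3′ UTR. That 3′ UTR can be shorter than the one of the listed transcript.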

Additional observations from a re-analysis of the deposited data

Results flagged for a closer look

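OSMR differed between LKB1 and control siRNA by -0.37 and -0.0547 on the log2 scale in the lanes of T98 and by 0.77 and 0.35 in those of U87, a difference of effects of -0.77. It passed the threshold in neither line. The test of that difference did not pass (limma-trend adjusted p of 1, or 0.166 with the lane term). BIRC5 was higher by 1.48 on the log2 scale in the difference of effects, T98 minus U87, which passed in the lane-term fit (limma adjusted p of 0.0439) and not without the lane term (adjusted p of 1).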

How the results depend on the processing

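The counts here include IL6ST, which was selected on its knockdown difference, so its calls in T98 and U87 test nothing. With pseudocounts of 0.5 and 5 and with filters of none or 50, the count was 0 in T98, 1 (IL6ST alone) in U87, 0 for the difference and within 1.5 times of 7 for the lines. The U87 count was 0 with median-ratio size factors and 0 with only the libraries compared. With the replicate block for lane it was 3 in T98 and 3 in U87, or 2 and 2 of the 8 members other than IL6ST. Without each library in turn, the counts were 0 to 0 in T98 and in U87, and 4 to 8 for the lines. IL6R for the lines changed sign with the replicate block (0.0885). Log2 values that changed sign without a library ranged as follows: in T98, IL11 from -0.10 to 0.75, SOCS3 from -0.40 to 0.47, STAT3 from -0.0823 to 0.0758 and LIFR from -0.95 to 0.0537. In U87 they were IL6 from -1.34 to 0.43, IL6R from -0.77 to 0.15 and LIFR from -0.28 to 0.48. For the difference they were SOCS3 from -0.0278 to 0.85, IL6R from -0.67 to 0.24, IL6 from -1.41 to 0.35 and LIF from -1.35 to 0.21, and for the lines IL6R from -0.56 to 0.27. The replicate block without each library in turn, added after seeing the data, called 0 to 2 members in T98 and 0 to 5 in U87. Fits to the 2 lines' libraries alone cannot give the difference, and the planned edgeR and DESeq2 fits were not run because whole reads were not taken from the values. In the replicate block, leaving out a library also changed how many of all genes were called in T98 and in U87. The difference between the lines was not refitted in this way. A group of 2 libraries limits every p-value here. The cause of these changes was not tested.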
